A study of Rattus norvegicus with 13 samples.

Results

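Markers of skin-derived precursors (SKPs) and of the neural crest were followed in cells cultured from adult rats of the Sprague Dawley strain. The genes were Sox2, Nes, Twist1, Snai2, Ngfr and Tfap2a, chosen by name as known markers, and all 6 were measured among 14506 genes of the array. Each was read by 1 probe set carrying that symbol alone. RNA was hybridised to the Rat Gene 1.0 ST array of Affymetrix. The 13 arrays were 3 independent isolates each of dorsal SKPs, facial SKPs and ventral SKPs, and 4 isolates of mesenchymal stromal cells (MSCs). The dorsal and ventral SKPs were from trunk skin, and RNA was taken from cells passaged 2 times. The labels name no genetic alteration and no agent in any group. The sources used here name neither the tissue that the MSCs came from nor the culture media.

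The neural crest is a transient population of the embryo that leaves the dorsal neural tube, migrates, and forms peripheral neurons, glia, melanocytes and much of the facial skeleton and dermis. Its cells are specified by transcription factors of the AP-2, SoxE, Pax, Snail and Twist families, and the low-affinity neurotrophin receptor p75 marks them on the surface. SKPs are dermal cells that grow as spheres in culture and can give neural and mesodermal cell types. They have been described by the combined presence of Sox2, nestin, Snail and Twist factors, and Sox2 is known in hair follicle dermal papillae.

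Sox2, Twist1 and Tfap2a were higher in every SKP array than in any MSC array and were not called between the 3 skin regions. The share of all genes without such overlap, in either direction, was counted by region alone. Against MSCs it was 22.5% for dorsal, 30.1% for facial and 37.9% for ventral SKPs. Ngfr was higher in SKPs as a class and Snai2 lower, each with overlap between single arrays. Nes followed the region instead: it was high in ventral SKPs, low in dorsal and facial SKPs, and intermediate and uneven in MSCs. Thus 4 of the 6 genes were called higher in SKPs, 1 was called lower and 1 was not called. Over all genes 25.3% were called in that comparison, 13.1% higher and 12.2% lower. The median log2 difference of the 6 genes was 1.40, against -0.02 over all genes. A gene was called at a limma adjusted p under 0.05 (Benjamini-Hochberg over all 14506 genes). Levels are log2 RMA values, and a difference of 1 is a factor of 2. Background in a group was the 95th percentile of 1105 olfactory receptor genes, at 3.94 to 4.04.

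**Figure D1:**
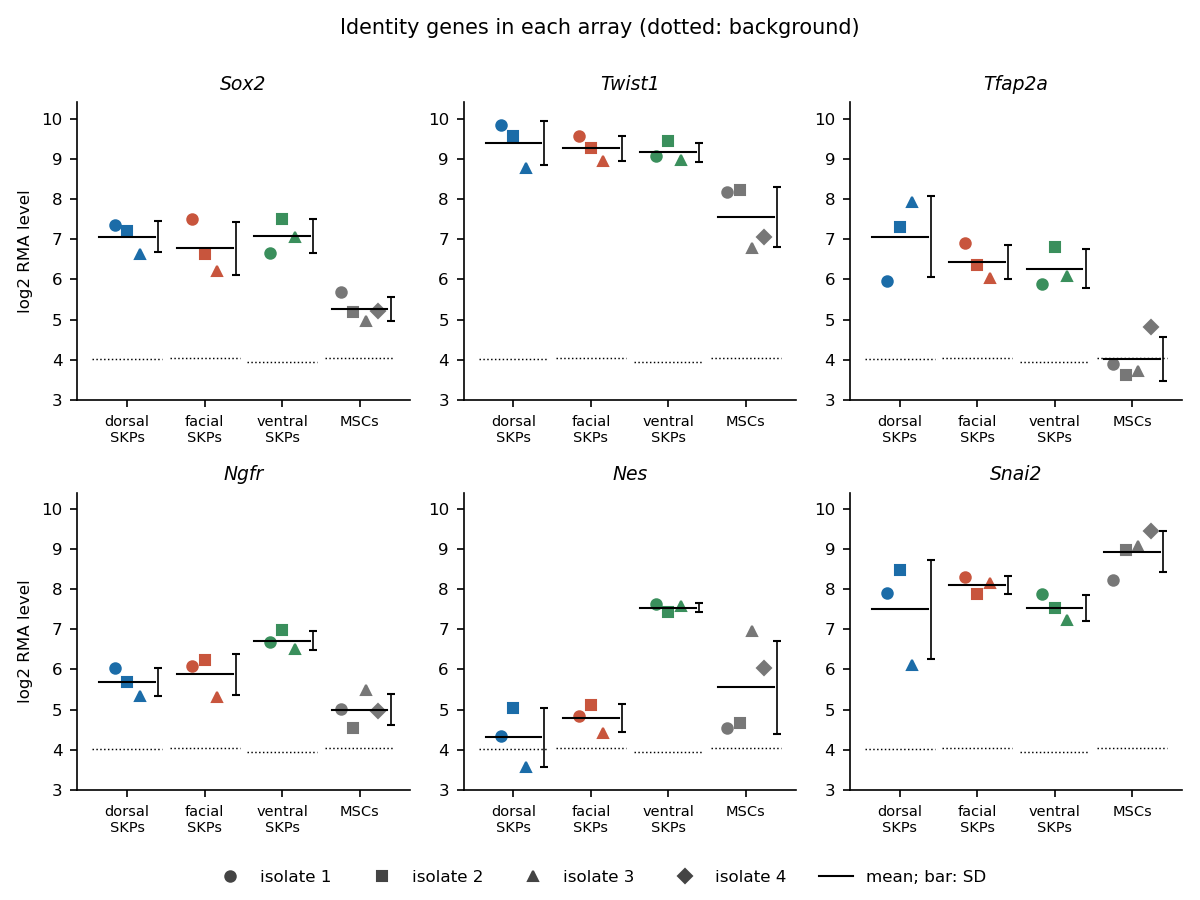
Level of each of the 6 genes (log2 RMA value, vertical axis) in the 13 arrays, by group. Symbols are single isolates, the line is the mean, the bar the SD (n = 3 for each SKP region, n = 4 for MSCs) and the dotted line the background. Sox2, Twist1 and Tfap2a lie above all MSC arrays in 9 of 9 SKP arrays, Nes has a mean of 7.54 in ventral SKPs against 4.31 and 4.79 in dorsal and facial SKPs, and Snai2 is lower in most SKP arrays than in MSCs.

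The stretches just before the annotated start of Sox2 and Twist1 are shown because these genes were higher in all 9 SKP arrays. That of Twist2 is added as the closest relative of Twist1, since it moved with it. Each run is the 250 bases upstream of the gene's start, from RefSeq on the GRCr8 build, written 5′ to 3′ on the gene's strand. The promoter table matched 3 of the 6 genes by symbol, Sox2, Twist1 and Nes, and not Snai2, Ngfr or Tfap2a. The Nes window is anchored inside the annotated gene, so it is not printed. Capitals mark matches, on either strand, to CANNTG (the E-box), CCAAT, GCCNNNGGC (AP-2) and ACAANG (Sox). CANNTG is a general form that includes the letters bound by Twist and Snail proteins, and not every match is a site of either.
Sox2, chr2:119464881-119465130 (+): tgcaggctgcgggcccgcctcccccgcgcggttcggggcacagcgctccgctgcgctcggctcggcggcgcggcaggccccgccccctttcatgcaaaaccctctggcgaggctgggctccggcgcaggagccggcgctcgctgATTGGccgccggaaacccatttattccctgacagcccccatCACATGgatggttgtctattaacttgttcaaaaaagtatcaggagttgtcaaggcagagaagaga
Twist1, chr6:56402059-56402308 (+): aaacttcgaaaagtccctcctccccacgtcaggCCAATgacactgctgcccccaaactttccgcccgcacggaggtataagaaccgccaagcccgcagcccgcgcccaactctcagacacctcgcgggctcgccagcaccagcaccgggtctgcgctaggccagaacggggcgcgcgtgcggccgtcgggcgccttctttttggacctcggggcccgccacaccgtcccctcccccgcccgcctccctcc
Twist2, chr9:99821992-99822241 (+): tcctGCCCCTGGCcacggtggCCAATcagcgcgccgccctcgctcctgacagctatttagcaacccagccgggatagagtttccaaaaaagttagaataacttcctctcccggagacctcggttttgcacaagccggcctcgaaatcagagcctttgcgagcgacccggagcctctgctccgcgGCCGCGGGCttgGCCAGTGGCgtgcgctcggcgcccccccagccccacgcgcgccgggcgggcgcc
The Sox2 window held 1 E-box match, 65 bases before the start, and 1 CCAAT match on the reverse strand, 106 bases before it. Twist1 held 1 CCAAT match, 217 bases before the start, and Twist2 held 1 at 229 bases beside 3 AP-2 matches. Of the 33469 windows of the table, 65.5% held CANNTG, 34% CCAAT, 12.6% GCCNNNGGC and 36.9% ACAANG. GC content was 64.4% for Sox2, 69.2% for Twist1, 67.2% for Twist2 and 60.4% for the Nes window, against a median of 51.2%. The matches describe letters and not binding.

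Sox2 encodes an HMG-box factor of stem cells and neural progenitors. Its log2 level was 7.35, 7.20 and 6.63 in dorsal SKPs, 7.50, 6.63 and 6.20 in facial SKPs and 6.66, 7.51 and 7.06 in ventral SKPs. In MSCs it was 5.70, 5.19, 4.98 and 5.21. The lowest SKP array, facial isolate 3, thus stood above the highest MSC array, and MSCs themselves were above background in 4 of 4 arrays. SKPs exceeded MSCs by 1.70 (SE 0.24, limma adjusted p = 0.00031), a 3.26-fold difference, with 1.79 for dorsal, 1.51 for facial and 1.81 for ventral SKPs (SE 0.31 each). These regional differences share the same 4 MSC arrays. The order was ventral, dorsal, facial and MSCs, and no neighbours among the regions differed beyond their spread. Facial minus dorsal was -0.29 (95% interval -1.01 to 0.43), facial minus ventral -0.30 (-1.02 to 0.42) and dorsal minus ventral -0.02 (-0.73 to 0.70).

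Of a list of Sox2 partners and pluripotency genes, 12 were measured. In SKPs 1 rose and 0 fell (median -0.09), and the riser was the T-box factor Tbx3 (0.74, SE 0.23, limma adjusted p = 0.0332), which lost its call without any 1 of 7 arrays (adjusted p between 0.053 and 0.109). These were facial isolates 2 and 3, MSC isolates 1, 2 and 3, and ventral isolates 1 and 3. Pou5f1 and Nanog lay under background in every group. The 1 other SoxB gene measured, Sox14, was 0.35 lower in SKPs (SE 0.10, adjusted p = 0.0181), a call that depended on MSC isolate 1 (0.0682 without it) and MSC isolate 4 (0.0513 without it).

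Twist1, a basic helix-loop-helix factor of cranial neural crest and mesoderm, reached 9.83, 9.58 and 8.77 on the dorsal arrays. Facial isolates had 9.57, 9.26 and 8.94, and ventral isolates 9.08, 9.43 and 8.98. MSC isolates 1 and 2 had 8.17 and 8.21, and isolates 3 and 4 had 6.78 and 7.05. The lowest SKP array, dorsal isolate 3, lay above the highest MSC array, and MSC isolates 3 and 4 were the lowest of all. SKPs were 1.72 higher (SE 0.29, limma adjusted p = 0.000953). The regional differences from MSCs were 1.84, 1.70 and 1.61 (SE 0.37 each) for dorsal, facial and ventral SKPs. Between regions the largest was 0.23 (dorsal minus ventral, 95% interval -0.63 to 1.08).

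Twist2, also called Dermo-1 and expressed in dermis, showed a larger difference in the same direction. Dorsal isolates had 9.85, 9.32 and 8.61, facial isolates 8.98, 9.82 and 9.52, and ventral isolates 8.81, 8.63 and 8.76, while the MSC isolates had 6.46, 6.73, 5.54 and 5.74. No SKP array overlapped with an MSC array (3.03, SE 0.26, limma adjusted p = 7.3e-06). As with Twist1, MSC isolates 3 and 4 were the lowest. The E protein Tcf4, a dimer partner of Twist factors, rose by 1.91 (SE 0.09, adjusted p = 6.81e-08). The tendon factor Scx, of the same helix-loop-helix class, fell by 1.45 (SE 0.11, adjusted p = 2.52e-06).

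Tfap2a, an AP-2 factor that acts early in neural crest formation, read 5.95, 7.30 and 7.93 on the dorsal arrays. Facial isolates had 6.90, 6.36 and 6.04, and ventral isolates 5.90, 6.81 and 6.09. MSCs had 3.91, 3.63, 3.72 and 4.82, and only isolate 4 was above background. The groups did not overlap. The difference was 2.57 (SE 0.35, limma adjusted p = 0.000214), whose size is not resolved because 3 of 4 MSC arrays lay under background. By region it was 3.04, 2.41 and 2.25 (SE 0.44 each) for dorsal, facial and ventral SKPs. Dorsal isolates spread most (SD 1.01), and the regional differences, of which dorsal minus ventral was the largest at 0.79 (95% interval -0.24 to 1.82), were not called. Melanocytes also express Tfap2a, and some markers of theirs were also higher in SKPs. The mean of 5 melanocyte markers was 5.59, 5.97 and 6.10 on dorsal arrays 1 to 3, 4.60 to 5.34 in facial and 5.50 to 5.77 in ventral SKPs, above the 4.01 to 4.44 of MSCs. Of the 5, 3 rose in SKPs (median 1.58): Mitf (2.25, SE 0.29, limma adjusted p = 0.000141), Kit (adjusted p = 0.00193, its MSC mean under background) and Mlana (1.58, SE 0.50, 0.0377). The Mlana call was lost without any 1 of 8 arrays (0.0576 to 0.0917): facial isolate 1 or 2, any MSC isolate, or ventral isolate 1 or 2. By region against MSCs, 3 of the 5 were called higher in dorsal, 2 in ventral and 1 in facial SKPs. In facial SKPs 1 was also called lower (median 0.39). The pigment enzymes Tyr and Tyrp1 were under background in all 4 groups. The part of these markers in Tfap2a was not tested.

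Among the other AP-2 genes Tfap2c, known in ectoderm and neural crest, moved with Tfap2a. Dorsal isolates had 9.34, 9.60 and 8.92, facial isolates 8.59, 8.47 and 8.08, and ventral isolates 9.22, 9.25 and 8.73, while the MSC isolates had 4.62, 3.71, 4.01 and 4.56. It was 4.69 higher in SKPs (SE 0.20, limma adjusted p = 2.96e-08), and MSCs were close to background, 2 of 4 arrays lying under it. Tfap2b (0.40, SE 0.32, adjusted p = 0.419) and Tfap2e (0.11, SE 0.14, 0.65) were not called, and Tfap2d was under background in all 4 groups. Tfap2b was raised on 1 facial array, isolate 1, at 6.47, where the other two facial isolates had 4.06 and 4.73. Of the 13 measured AP-2 genes and regulators besides Tfap2a, 3 rose and 2 fell (median 0.15). The AP-2 coactivator Cited2 fell by 1.83 (SE 0.11, adjusted p = 6.23e-07), while Kctd1, a repressor of AP-2 activity, rose by 0.53 (SE 0.11, adjusted p = 0.00301).

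**Figure D2:**
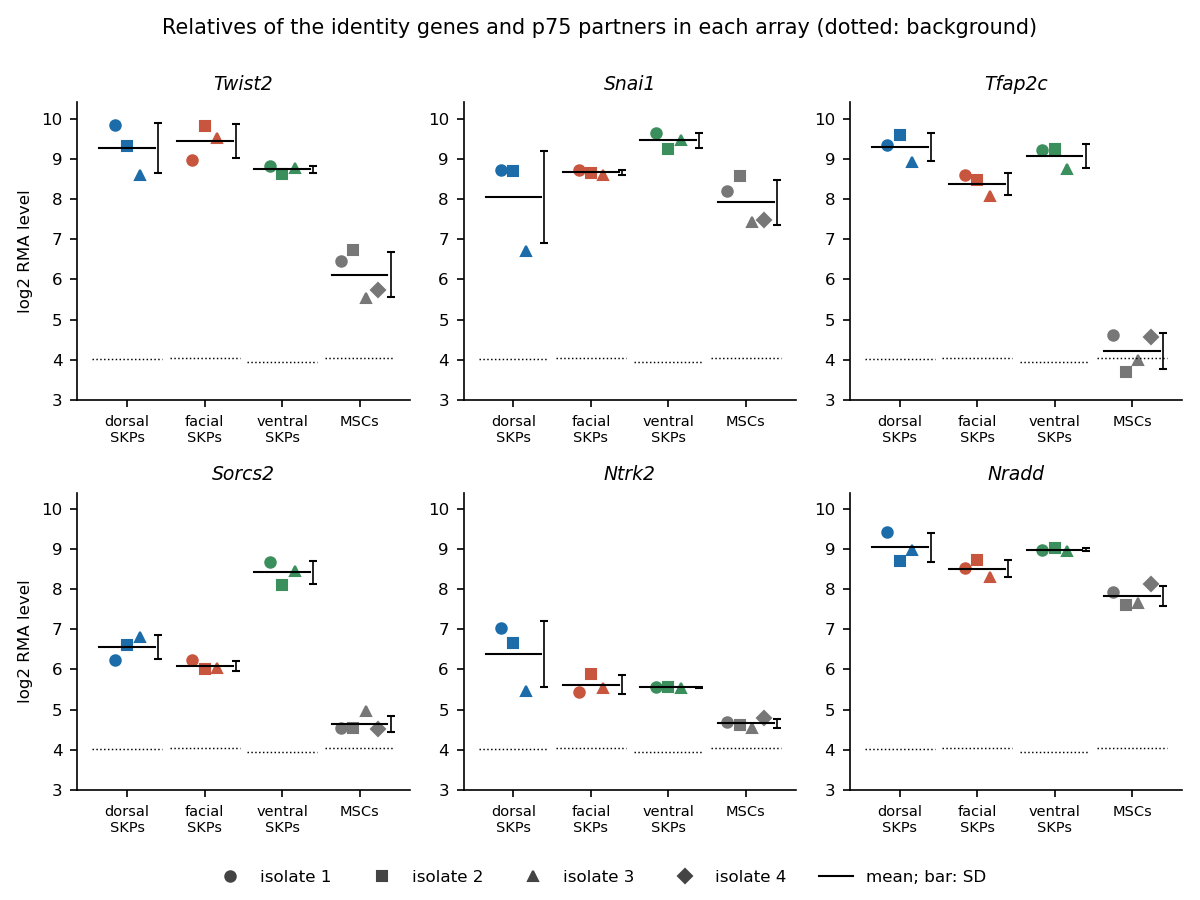
Level (log2 RMA value, vertical axis) of relatives of Twist1, Snai2 and Tfap2a and of genes tied to the p75 receptor, in the 13 arrays by group. Symbols are single isolates, the line is the mean, the bar the SD and the dotted line the background. Twist2, Tfap2c and Sorcs2 lie above all MSC arrays in 9 of 9 SKP arrays, and Sorcs2 is highest in ventral SKPs.

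Snai2 (Slug), a zinc-finger repressor of epithelial genes that acts in crest migration, ran the other way. MSC isolates had 8.24, 8.96, 9.06 and 9.45. Dorsal isolates had 7.90, 8.48 and 6.12, facial isolates 8.29, 7.86 and 8.14, and ventral isolates 7.87, 7.51 and 7.22. Thus 7 of 9 SKP arrays lay under every MSC array, and dorsal isolate 2 and facial isolate 1 overlapped with the lowest MSC array. As a class SKPs were 1.22 lower (SE 0.36, limma adjusted p = 0.0271), a call lost without MSC isolate 2 (0.0643), MSC isolate 3 (0.0692), MSC isolate 4 (0.0954) or ventral isolate 3 (0.0504). Ventral SKPs alone were called against MSCs among the regions (-1.39, SE 0.46, adjusted p = 0.045). Leaving out any 1 of 10 arrays ended this call (0.0511 to 0.15): dorsal isolate 1, the 3 facial isolates, MSC isolates 2 to 4, and the 3 ventral isolates. Dorsal SKPs had -1.43 (SE 0.46, 0.0534), called without dorsal isolate 2 (0.0155) or MSC isolate 1 (0.0363). Facial SKPs had -0.83 (SE 0.46, 0.251), called without dorsal isolate 3 (0.0473). The regions were not called against each other.

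Its relative Snai1 (Snail) did not share that direction. Snai1 was 8.71, 8.70 and 6.72 in dorsal, 8.73, 8.64 and 8.61 in facial, 9.64, 9.25 and 9.48 in ventral SKPs and 8.20, 8.57, 7.42 and 7.47 in MSCs. The difference of 0.81 (SE 0.34, limma adjusted p = 0.112) was not called, and without dorsal isolate 3 it was 1.03 (adjusted p = 0.00263). Dorsal isolate 3 was the lowest dorsal array for both Snail genes. Snai3 was near background in all groups. Of 16 measured Snail, Twist and Zeb factors and partners besides Twist1 and Snai2, 4 rose and 3 fell in SKPs (median 0.15), and with the replicate number as a block 2 rose. Of 19 measured genes that change in epithelial-mesenchymal transition, 6 rose and 2 fell (median -0.03), and without MSC isolate 1 or 2 only 1 fell. N-cadherin (Cdh2) rose by 2.06 (SE 0.28, adjusted p = 0.000214), as did the gelatinases Mmp9 (3.35, SE 0.36) and Mmp2 (1.78, SE 0.16).

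Ngfr encodes p75, the receptor of all neurotrophins. It was 6.67, 6.98 and 6.50 in ventral SKPs, 6.04, 5.68 and 5.35 in dorsal and 6.08, 6.24 and 5.30 in facial SKPs, against 5.01, 4.53, 5.48 and 4.97 in MSCs. Ventral arrays stood above all others, and dorsal isolate 3 and facial isolate 3 lay within the range of MSCs. SKPs were 1.09 higher (SE 0.21, limma adjusted p = 0.00228). Ventral SKPs differed from MSCs by 1.72 (SE 0.27, adjusted p = 0.000669) and facial SKPs by 0.88 (SE 0.27, adjusted p = 0.038), and dorsal SKPs were not called (0.69, SE 0.27, 0.106). The facial call was lost without dorsal isolate 2 (0.0509), facial isolate 1 (0.125) or 2 (0.149), MSC isolate 1 (0.0663), 2 (0.0933) or 4 (0.076), or ventral isolate 1 (0.0548). It was also lost with all arrays shifted to the same median (0.0538). Between regions, ventral SKPs exceeded dorsal by 1.03 and facial by 0.84 (SE 0.28 each) with no overlap. Neither was called (adjusted p = 0.0551 and 0.104), and the first was called without dorsal isolate 1 (0.0462), facial isolate 3 (0.0324) or MSC isolate 3 (0.0432).

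Of 21 measured neurotrophins, Trk receptors and p75 partners, 6 rose and 2 fell in SKPs (median -0.08). Sorcs2, a sortilin-family co-receptor of p75, rose by 2.38 (SE 0.14, limma adjusted p = 3.97e-07). It was 8.68, 8.11 and 8.44 in ventral SKPs, 6.23, 6.60 and 6.82 in dorsal, a mean of 6.09 ± 0.13 (SD, n = 3) in facial SKPs and 4.52 to 4.96 in MSCs. Like Ngfr it was highest in ventral SKPs, and here the regional difference was called against both facial (2.32 lower, adjusted p = 3.57e-05) and dorsal SKPs (1.86 lower, adjusted p = 0.000227). The BDNF receptor TrkB (Ntrk2) rose by 1.19 (SE 0.22, adjusted p = 0.00189), with its highest values on dorsal isolates 1 and 2 (7.03 and 6.65). Nradd, a membrane protein with a p75-like death domain, rose by 1.02 (SE 0.14, adjusted p = 0.000254), and the protease Adam17, which sheds p75, rose by 1.31 (SE 0.20, adjusted p = 0.000441).

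Nes encodes nestin, an intermediate filament protein of neural progenitors and of several dividing mesenchymal cells. Ventral SKPs had 7.62, 7.42 and 7.57, dorsal SKPs 4.33, 5.03 and 3.57 and facial SKPs 4.84, 5.12 and 4.41. MSC isolates 1 and 2 had 4.55 and 4.68, and isolates 3 and 4 had 6.94 and 6.04. The ventral arrays lay close together (SD 0.10) and above all other arrays, and dorsal isolate 3 was under background. Nes was 3.23 lower in dorsal than in ventral SKPs (SE 0.55, limma adjusted p = 0.00732), a 9.36-fold difference. It was 2.74 lower in facial than in ventral SKPs (SE 0.55, adjusted p = 0.0142). Nes was the 1 of the 6 genes called in each. Against ventral SKPs 6.11% of all genes were called in dorsal (2.35% higher, 3.76% lower) and 6.6% in facial SKPs (2.25% higher, 4.36% lower). Facial and dorsal SKPs differed by 0.48 (95% interval -0.73 to 1.69), a comparison in which limma called 0 of the 6 genes and 1.25% of all genes, and the unadjusted 95% interval included 0 for 6 of 6. Ventral SKPs exceeded MSCs by 1.98 (SE 0.52, adjusted p = 0.0153). Dorsal (-1.24, SE 0.52, adjusted p = 0.135) and facial SKPs (-0.76, SE 0.52, 0.364) were not called, and averaged over regions the difference was -0.01 (95% interval -0.90 to 0.88). The order was therefore ventral SKPs, MSCs, facial and dorsal SKPs, and below the ventral arrays no neighbours differed beyond their spread. The call of ventral SKPs against MSCs was lost without ventral isolate 1 (0.0533) or 3 (0.0509). That against facial SKPs was lost without ventral isolate 1 (0.0554), ventral isolate 3 (0.0544) or facial isolate 3 (0.0537).

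Vimentin (Vim), with which nestin copolymerises, was within 12.95 to 13.50 on all 13 arrays and was not called in SKPs against MSCs (-0.17, SE 0.07, limma adjusted p = 0.0743). It was called lower without dorsal isolate 1 (0.0421) and with arrays at the same median (0.0405). Of 19 measured intermediate filament genes, 0 rose (1 without MSC isolate 1) and 3 fell in SKPs (median -0.14): the muscle filament desmin (Des, -2.26, SE 0.42, limma adjusted p = 0.00176) and the nuclear lamins Lmnb1 (-2.07, SE 0.22, 4.46e-05) and Lmna (-0.44, SE 0.15, 0.0499). The Lmna call was lost without any 1 of 9 arrays (0.0574 to 0.154): dorsal isolate 2, facial isolates 2 and 3, MSC isolates 1, 2 and 4, and the 3 ventral isolates.

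**Figure D3:**
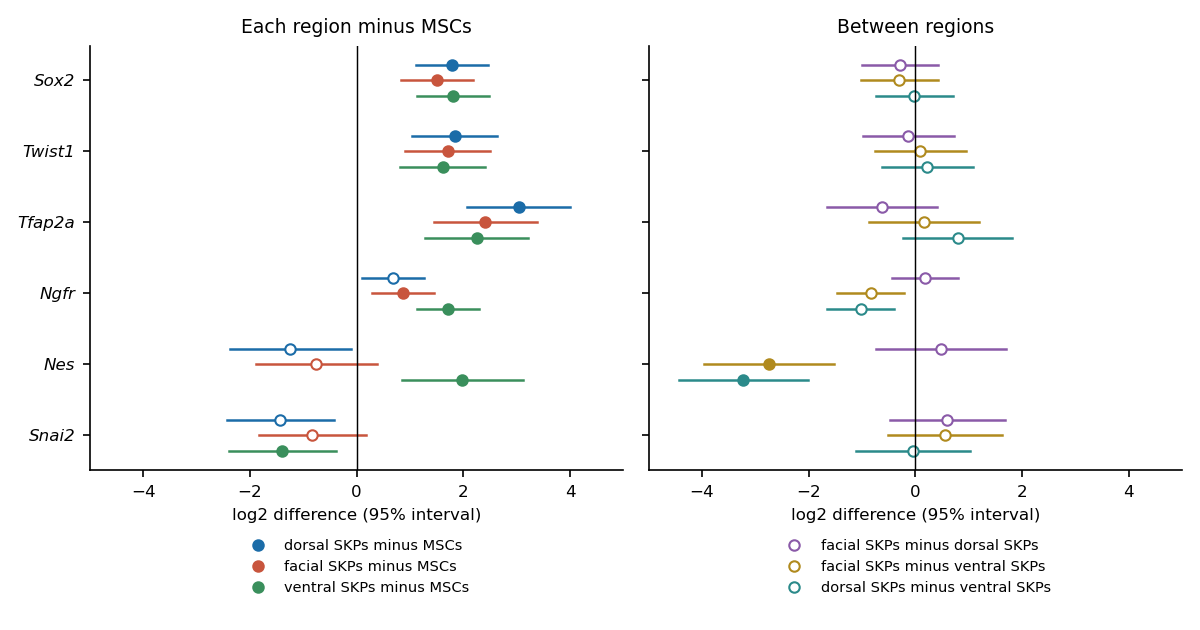
Log2 differences of the 6 genes (horizontal axis) with their 95% intervals, each region minus MSCs on the left and between regions on the right. Filled points passed the limma test at an adjusted p under 0.05 over all genes, open points did not; the 3 comparisons on the left share the MSC arrays. Sox2, Twist1 and Tfap2a are to the right of 0 in all 3 regions, and Nes alone has filled points between regions.

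Counted by region, 3 of the 6 genes were called higher and 0 lower in dorsal SKPs than in MSCs (of all genes 16.5% were called, 8.77% higher and 7.76% lower). In facial SKPs 4 were higher and 0 lower (of all genes 19%, 9.47% higher and 9.58% lower), and in ventral SKPs 5 were higher and 1 lower (24.4%, 13% higher and 11.4% lower). The arrays did not overlap with those of MSCs for 6 of the 6 genes in ventral SKPs (37.9% of all genes), 3 in facial SKPs (30.1%) and 3 in dorsal SKPs (22.5%). Whether the counts of the regions differ was not tested.

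Some isolates were often the lowest of their group over the 6 genes. How often they were so over all genes was not counted. Dorsal isolate 3 was the lowest dorsal array for 5 of the 6 genes and the highest for Tfap2a. Its mean over 12 fibroblast and stromal genes was 9.88 (12.05 and 12.00 on the other dorsal arrays). Its mean over 20 cell cycle genes was 5.15 (7.42 and 6.93 on the other dorsal arrays), and over 15 hypoxia and glycolysis genes it was 10.30 (8.85 and 8.85). Facial isolate 3 was the lowest facial array for 5 of the 6 genes, all but Snai2. It had a mean of 9.86 over 20 macrophage and leukocyte markers (7.55 and 6.16 on the other facial arrays, 4.08 to 4.59 in MSCs), all 20 of them above background. Dorsal isolate 1 also had 20 of 20 above background, with a mean of 7.05 (5.06 and 4.21 on the other dorsal arrays), and ventral SKPs had 5.19 to 5.52. Of the 20, 17 rose in facial SKPs against MSCs (median 3.34), 2 in ventral (0.48) and 0 in dorsal SKPs (0.95). Averaged over the regions, 10 rose in SKPs. The count of 10 was 4 without MSC isolate 3, 3 without MSC isolate 4, and 6 without ventral isolate 2 or 3. In bulk RNA, fewer cells of a type and less RNA per cell cannot be told apart, and the part of these markers in the levels was not tested. Without dorsal isolate 3, and without facial isolate 3, the calls of Sox2, Twist1, Tfap2a, Ngfr and Snai2 between SKPs and MSCs held.

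Markers of other cell types that can carry nestin or p75 were also examined. The 10 endothelial markers had means of 5.49, 4.94 and 5.50 in ventral SKPs, against 3.96 to 4.41 in the other regions and 4.07 to 4.59 in MSCs. All 10 lay above background on the ventral arrays and 4 to 5 on the dorsal and facial ones. Of the 10, 4 were called lower in facial and 4 in dorsal than in ventral SKPs (of all genes 4.36% and 3.76%). Endomucin (Emcn) was at 5.48 ± 0.56 and VE-cadherin (Cdh5) at 4.84 ± 0.17 (SD, n = 3) in ventral SKPs. The means of both were under background in the other 3 groups. The 13 Schwann and glial markers had means of 5.65 to 5.71 in ventral and 4.85 to 5.31 in the other SKPs, and 5.08 to 5.45 in MSCs. Without Egr2 the means of the other 12 were 5.24 to 5.30 in ventral SKPs and 4.86 to 5.14 in the other SKPs, and MSC isolate 3 was highest at 5.40. Of the 13, 2 were called lower in facial than in ventral SKPs (median -0.16) and 2 lower in dorsal than in ventral SKPs (median -0.16). Of them Egr2, a factor of myelination that is also an immediate early gene, was 4.17 lower in dorsal (SE 0.50, adjusted p = 0.000848) and 3.24 lower in facial SKPs (adjusted p = 0.00325) than in ventral SKPs. Gap43 was called lower in dorsal than in ventral SKPs (-1.65, SE 0.30, limma adjusted p = 0.00971). It was called higher in facial than in dorsal SKPs (2.14, SE 0.30, 0.00482). The glial factor Sox10 was between 4.83 and 5.53 on all 13 arrays, and Cdh19 was under background in all 4 groups. The 13 pericyte and smooth muscle markers had means of 6.39 to 6.76 in ventral and 5.86 to 6.13 in the other SKPs. Against ventral SKPs, 1 of them was called lower in facial and 2 in dorsal SKPs, and 0 higher. Rgs5 was called in both (-1.55, limma adjusted p = 0.00804, and -1.45, 0.0119). Its dorsal call was lost without ventral isolate 3 (0.0553) and in a fit of the compared groups alone (0.0537). In MSCs the list was at 8.89 and 9.09 on isolates 3 and 4, where Nes was also higher. On isolates 1 and 2 it was at 7.71 and 7.92. The part of these cell types in Nes and Ngfr was not tested.

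**Figure D4:**
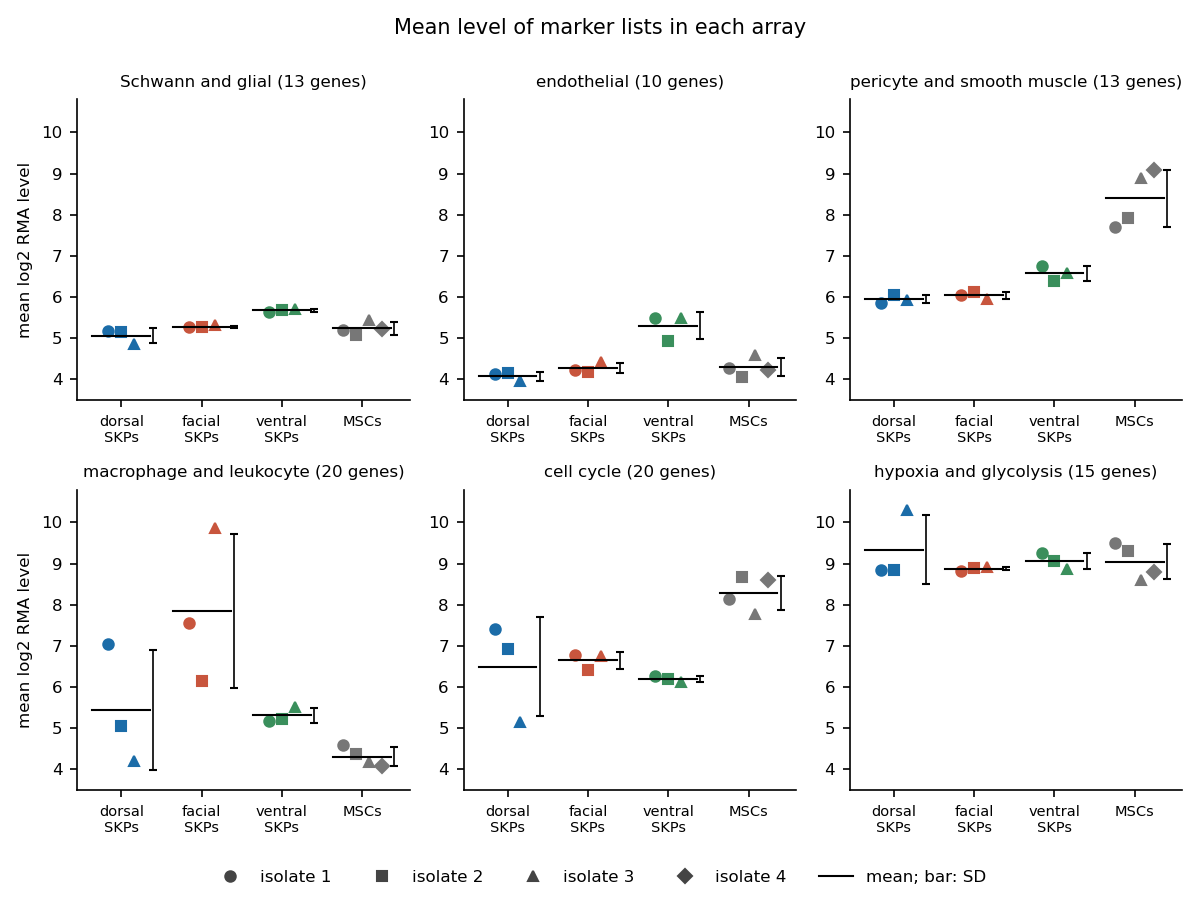
Mean level (log2 RMA value, vertical axis) of 6 marker lists in the 13 arrays, by group. Symbols are single isolates, the line is the mean and the bar the SD. The endothelial list is highest in the 3 ventral arrays, as is the Schwann list through Egr2 (without it MSC isolate 3 is highest), the macrophage list reaches 9.86 on facial isolate 3, and dorsal isolate 3 is lowest for the cell cycle list and highest for the hypoxia list.

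Against the labelled cell types, MSC surface markers were above background for 8 of 8 genes on MSC isolates 1 and 2 and 7 of 8 on isolates 3 and 4. They were so for 8 of 8 on every SKP array as well. Fibroblast and stromal genes were above background for 11 or 12 of 12 on all 13 arrays. Cell cycle genes fell in 19 of 20 cases in SKPs, with a median of -2.09 and means of 5.15 to 7.42 in SKPs against 7.78 to 8.67 in MSCs. Of the 6 markers of SKPs and crest, all but Nes were above background on 9 of 9 SKP arrays. Nes was under it on dorsal isolate 3, and in dorsal and facial cultures it was not called higher than in MSCs.

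The wider neural crest programme was mixed. Of 24 measured specifiers and border genes besides the 6, 7 rose and 6 fell in SKPs (median 0.09, against -0.02 over all genes). The risers with the largest differences were Tfap2c, Twist2, the integrin subunit Itga4 (2.61, SE 0.66, limma adjusted p = 0.0117) and the cadherin Cdh6 (1.81, SE 0.18, adjusted p = 2.07e-05, its MSC mean under background). Itga4 was 4.36 and 4.95 on MSC isolates 1 and 2. On MSC isolates 3 and 4 it was 8.38 and 7.77, within the SKP range of 7.47 to 9.71. Several crest genes followed the skin region. Pax3 was at 8.68 ± 0.46 in facial SKPs and 4.02 to 4.34 as means of the other groups, and Cdh6 at 7.93 ± 0.32 against 3.49 to 4.22. Zic1 was at 8.11 ± 0.52 (SD, n = 3) in dorsal SKPs and under background in the others. The SoxE factor Sox10 and the forkhead factor Foxd3, which specify crest, were not called between SKPs and MSCs (0.17, SE 0.09, adjusted p = 0.202, and -0.14, SE 0.13, 0.476). Of 26 measured SKP and dermal papilla markers, 12 rose and 4 fell (median 0.44). Crabp1, which binds retinoic acid, rose by 4.87 (SE 0.67, adjusted p = 0.000236), and the homeobox factor Alx4 by 2.75 (SE 0.18, 8.75e-07). The growth factor Fgf7 fell (-2.55, SE 0.42, 0.00079).

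Likeness of pattern was measured as the root mean square difference, in log2 units over the 13 arrays, after each gene was centred on its own mean. A value of 0 is the same pattern, and the gene's own root mean square around its mean is the value that a flat gene would give. For Sox2 (own value 0.88) the nearest genes were the nucleotide receptor P2ry2 (0.26), Syt17 (0.27) and Tmem119 (0.32). For Twist1 (0.91) they were the secreted protein Angptl2 (0.26), Syt17 (0.28) and the lipid droplet protein Plin2 (0.29). Syt17 was thus among the nearest 3 of both, with means of 7.14 (dorsal), 6.70 (facial), 7.14 (ventral) and 5.30 (MSCs). For Tfap2a (1.33) the transcriptional repressor Prdm1 came first (0.45), with means of 8.07, 7.44 and 7.01 in the dorsal, facial and ventral groups and 4.55 in MSCs, followed by Slc5a3 (0.51) and Fndc3a (0.51). For Ngfr (0.70) Mpzl1 (0.31), the receptor phosphatase Ptprs (0.31) and Spock1 (0.31) were nearest, all 3 highest in ventral SKPs. For Nes (1.34) the nearest were Ccn4 (0.62), a Wnt-induced matrix protein, cyclin D2 (Ccnd2, 0.66) and the parathyroid hormone receptor Pth1r (0.69). These too were highest in ventral SKPs. For Snai2 (0.83) Mns1 (0.33), Specc1 (0.35) and Pdlim7 (0.36) were nearest, all 3 highest in MSCs. These values describe the arrays and carry no test.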

How the data were processed

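The authors deposited log2 values from RMA, which corrects background, quantile-normalises and summarises probes, run in Affymetrix Expression Console on core genes, per the labels and the submitters' processing notes. Those notes also name limma, without versions. Quantile normalisation gives all arrays like distributions (medians 4.91 to 5.01), so a shift of all genes cannot be seen. Of 29215 probe sets, 15310 carried exactly 1 symbol, and the 323 with several and the 13582 unnamed were not used. Entrez identifiers served to update symbols. The probe set with the highest mean over the 13 arrays stood for a gene (14506 genes).

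limma 3.58.1 (R 4.3.3) fitted group means to the 13 arrays together, two-sided, without a low-value filter, and tested on simulated data. SKP isolates are independent per the series' design; of the MSC isolates it gives the number alone, so p-values measure the spread between these arrays. The number of arrays limits the precision. In 18 pairs of arrays with the same replicate number, correlations of deviations from group means ran from -0.12 to 0.20. Pairs with different numbers were not compared, so these values cannot show whether the numbers pair isolates. The genes and lists were chosen with earlier results of these data known. Named were the 6 genes, their family relatives, up to 4 called members per list (up to 3 between regions), of which part are given, and the 3 genes nearest each gene. A few list genes named for their role, namely Vim, Sox10, Foxd3, Cdh5, Cdh19, Pou5f1, Nanog, Tyr and Tyrp1, were added after their values were seen. Alternatives were the replicate block, each array left out, moderated variances with trend and robust settings, array weights, a fit of the compared groups alone, the mean of probe sets, genes above background, and arrays at the same median. The alternatives for list genes and lists were chosen after seeing the data, as was the Schwann list without Egr2.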

Additional observations from a re-analysis of the deposited data

Results flagged for a closer look

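Nes differed between skin regions, and so its difference from MSCs did too. It was lower in facial than in ventral SKPs (log2 difference -2.74, limma adjusted p = 0.0142) and lower in dorsal than in ventral SKPs (-3.23, adjusted p = 0.00732). All 3 ventral arrays lay above all 6 arrays of the other regions. No MSC array stood apart from the other MSC arrays by Dixon's test for any of the 6 genes, and groups of 3 were not tested. That test looks for a lone outlying array and cannot show a group that falls into pairs. Nes was 4.55 and 4.68 on MSC isolates 1 and 2 and 6.94 and 6.04 on isolates 3 and 4. Twist1 was 8.17 and 8.21 on isolates 1 and 2 and 6.78 and 7.05 on isolates 3 and 4.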

How the results depend on the processing

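Sox2, Twist1 and Tfap2a kept their direction and call against MSCs in each region and over all SKPs under every alternative run, as did Ngfr over all SKPs and in ventral SKPs. With the replicate number as a block, 4 of the 6 genes were called in SKPs against MSCs, since Snai2 was lost (limma adjusted p = 0.11), and 2769 genes were called in place of 3672. The block also lost Snai2 in ventral SKPs (0.122), Ngfr in facial SKPs (0.102) and Sox14 (0.057). Against ventral SKPs 1 gene was called, Nes. Array weights called 2 in facial and 2 in dorsal SKPs (with Ngfr, adjusted p = 0.041 and 0.031), and testing genes above background called 2 in dorsal SKPs (Ngfr, 0.0472). Leaving out 1 array gave 0 to 1 in facial and 1 to 2 in dorsal SKPs. A fit of the compared groups alone lost Ngfr in facial SKPs (0.081); for all SKPs against MSCs that fit is the one reported. Snai2 in dorsal SKPs was called among genes above background (0.0447) and at the same median (0.0441), and Snai1 with array weights (0.037). Some differences, none of them called, changed sign. Nes in SKPs minus MSCs was 0.16 with the block, 0.44 with array weights and -0.34 to 0.46 without 1 array. Dorsal minus ventral, array weights gave 0.12 for Sox2 and 0.48 for Snai2. Without 1 array, Sox2 there ran from -0.22 to 0.20 and Snai2 from -0.53 to 0.65. Facial minus dorsal, Twist1 ran from -0.45 to 0.085. Snai2 there was 0.60 with all arrays and ran from -0.089, without dorsal isolate 3, to 1.09. Facial minus ventral, Twist1 ran from -0.061 to 0.25 and Tfap2a from -0.069 to 0.44. Tfap2e in SKPs minus MSCs ran from -0.020 to 0.18. The cause was not tested. Over all genes the number of calls ran from 43 to 258 facial against dorsal (182 reported), 390 to 2441 facial against ventral (958) and 327 to 1519 dorsal against ventral (886). Against MSCs it ran from 1250 to 2557 in dorsal (2397), 1898 to 3288 in facial (2762) and 2545 to 4787 in ventral SKPs (3545). Levels near background, as of Tfap2a in MSCs, limit the size of a difference.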
